A study of Ovis aries with 115 samples.

Results

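MICB, a gene of the MHC class I related MIC family (identifier ENSOARG00000009868), is 1 of the 27054 genes counted in RNA-sequencing of the ovine cervix, and it is described here across breeds, cycle types and phases. The mid-cervix of mature ewes was sampled from the Irish breeds Belclare and Suffolk and from the breeds FUR (Fur) and Norwegian (Norwegian White Sheep), which were sampled in Norway, so that across these 2 pairs a difference of breed cannot be told apart from one of country. Induced ewes had been synchronised with a progestagen sponge followed by equine chorionic gonadotrophin, and natural ewes cycled without this treatment. The induced follicular groups held 10 Belclare, 8 FUR, 10 Norwegian and 11 Suffolk ewes, the natural follicular groups 10, 10, 10 and 8, and the induced luteal groups 10, 9, 8 and 10, in the same order of breeds. Each ewe gave 1 library. The natural luteal phase was not analysed here, so the luteal and the natural follicular ewes differed in both phase and cycle type.

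MIC proteins are cell surface relatives of MHC class I that do not present peptide. In other mammals they are induced by stress, infection or transformation, mainly on epithelial cells, and they bind NKG2D, an activating receptor of natural killer cells, of many CD8 T cells and of gamma delta T cells, which then kill or alert against the displaying cell. ULBP proteins are a further family of NKG2D ligands, and metalloproteinases can cut MIC proteins off the surface. The MIC genes are a polymorphic multigene family, and only read pairs with a unique place in the reference genome were counted, so counts of MICB may include or lack reads of close copies. In whole tissue, fewer cells of a type and less RNA per cell cannot be told apart.

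Total counts of the ewes in these groups ranged from 12238996 to 31261671, with a median of 17835128.5. MICB was detected in every ewe, at 29 to 579 counts. All 3 measured mucin genes of the cervix were detected in every ewe, as a check of the tissue. The mitochondrial gene COX-1 was at 25.2 to 49.8 CPM (counts scaled to library size) in FUR ewes and at 828 CPM or more in every other ewe except Norwegian natural follicular replicates 10 and 4, which were at 33.0 and 38.8 CPM, so these 2 libraries went against their breed label in this gene. Their MICB levels were 14.1 and 10.2 CPM, and the MICB comparisons, ULBP2 changes and correlations that use them are also given without them. The counts of listed genes called and the spread within groups keep them.

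MICB was chosen from the contrast of Belclare with Suffolk ewes at the induced follicular phase, so that contrast and any other that uses those ewes is a description with no test. FUR against Norwegian at the induced follicular phase was also left without a test. The remaining comparisons were tested. Levels are library-size-normalized CPM, and a difference is a log2 fold change with its standard error (SE). A gene was called where its adjusted p was under 0.05 and its fold change above 1.5, in a fit of the ewes of the 2 groups alone over 15649 genes (edgeR quasi-likelihood F test, Benjamini-Hochberg adjustment).

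The lowest levels of MICB were in Belclare ewes. The 3 Belclare groups held the 3 lowest of the 12 group medians, at 4.53 CPM (induced luteal), 7.98 CPM (induced follicular) and 9.505 CPM (natural follicular). FUR induced follicular ewes came next at 11.04 CPM. Medians of 7 of the remaining groups lay close together, between 14.3 and 15.8 CPM, of which the highest, that of Norwegian natural follicular ewes, was 18.4 CPM without the 2 libraries with low COX-1. Suffolk induced follicular ewes had the highest median, 22.2 CPM.

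**Figure D1:**
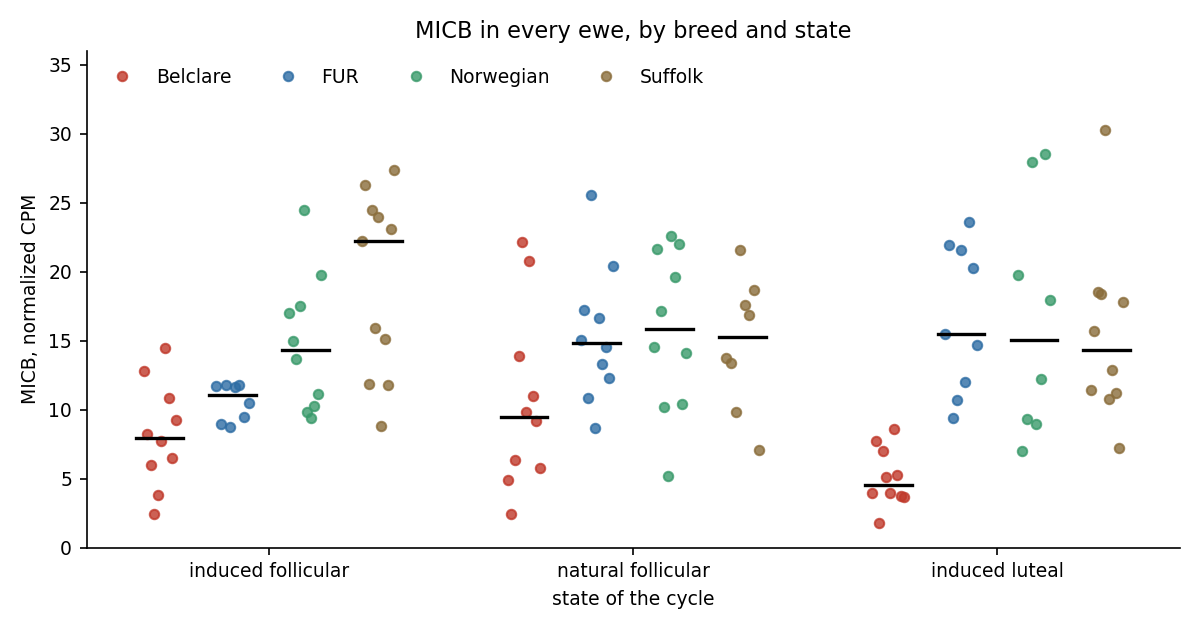
MICB in every ewe. Each point is 1 ewe, the vertical axis is the normalized CPM, black lines are group medians, and columns are the 4 breeds within each state. The 10 luteal Belclare ewes lie between 1.80 and 8.61 CPM, under all 9 luteal FUR ewes.

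At the induced luteal phase MICB was lower in Belclare than in each of the other breeds. Luteal Belclare ewes ranged from 1.80 CPM through a median of 4.53 CPM to 8.61 CPM, at 29 to 149 counts. Luteal FUR ewes ranged from 9.43 through 15.5 to 23.6 CPM. All 10 Belclare ewes thus lay below all 9 FUR ewes, and the groups did not overlap. MICB was 3.27-fold lower in Belclare (log2 fold change -1.71, SE 0.25, edgeR adjusted p = 6.4e-05), in a comparison in which 16.8% of all genes were called.

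Luteal Norwegian ewes spread widely, from 7.04 through 15.1 to 28.5 CPM. Of the 10 luteal Belclare ewes, 8 lay below all 8 Norwegian ewes and all 10 lay below the Norwegian median. The difference was -1.68 (SE 0.31, edgeR adjusted p = 0.00163), 3.21-fold lower, where 12% of genes were called.

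Luteal Suffolk ewes ranged from 7.25 through 14.3 to 30.3 CPM, and 8 of the 10 Belclare ewes were below all 10 of them. Against this other Irish breed MICB was 3.01-fold lower in Belclare (log2 fold change -1.59, SE 0.26, edgeR adjusted p = 0.0116), where 2.74% of genes were called. An exact two-sided permutation test of the log2 CPM, adjusted over 20 comparisons, called the same 3 differences, at adjusted p = 0.000325 against FUR, 0.00122 against Norwegian and 0.000325 against Suffolk. The 3 comparisons share the Belclare ewes and are not independent of each other.

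FUR, Norwegian and Suffolk luteal ewes overlapped in MICB. FUR differed from Norwegian by 0.01 (SE 0.29, edgeR adjusted p = 0.992) and from Suffolk by 0.12 (SE 0.23, edgeR adjusted p = 0.732), and Norwegian from Suffolk by 0.10 (SE 0.29, edgeR adjusted p = 0.874). In these comparisons 0.0575%, 14.2% and 4.31% of genes were called.

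At the natural follicular phase MICB was not called between any breeds. Belclare ewes covered the widest relative range of any group, from 2.44 through 9.505 to 22.2 CPM. Of these 10 ewes, 8 lay between 2.44 and 13.9 CPM and the other two at 20.7 and 22.2 CPM. FUR ewes ranged from 8.67 through 14.8 to 25.5 CPM, Norwegian ewes from 5.17 through 15.8 to 22.6 CPM and Suffolk ewes from 7.10 through 15.3 to 21.6 CPM.

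The Belclare estimates were again below zero, each by less than 2 SE. They were -0.54 against FUR (SE 0.30, edgeR adjusted p = 0.170), -0.55 against Norwegian (SE 0.33, edgeR adjusted p = 0.245) and -0.48 against Suffolk (SE 0.34, edgeR adjusted p = 0.642). Of all genes 16.1%, 12.9% and 0.00639% were called in these comparisons. Without the 2 Norwegian libraries with low COX-1 the second value was -0.63 (SE 0.36, edgeR adjusted p = 0.238).

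The 3 other breeds lay within 0.07 of each other on the log2 scale in the natural follicular phase. FUR against Norwegian was -0.02 (SE 0.23, edgeR adjusted p = 0.982), FUR against Suffolk 0.05 (SE 0.21, edgeR adjusted p = 0.884) and Norwegian against Suffolk 0.07 (SE 0.26, edgeR adjusted p = 0.917), with 0.0575%, 9.52% and 0.927% of genes called. Without the 2 Norwegian libraries the first was -0.10 and the last 0.15.

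**Figure D2:**
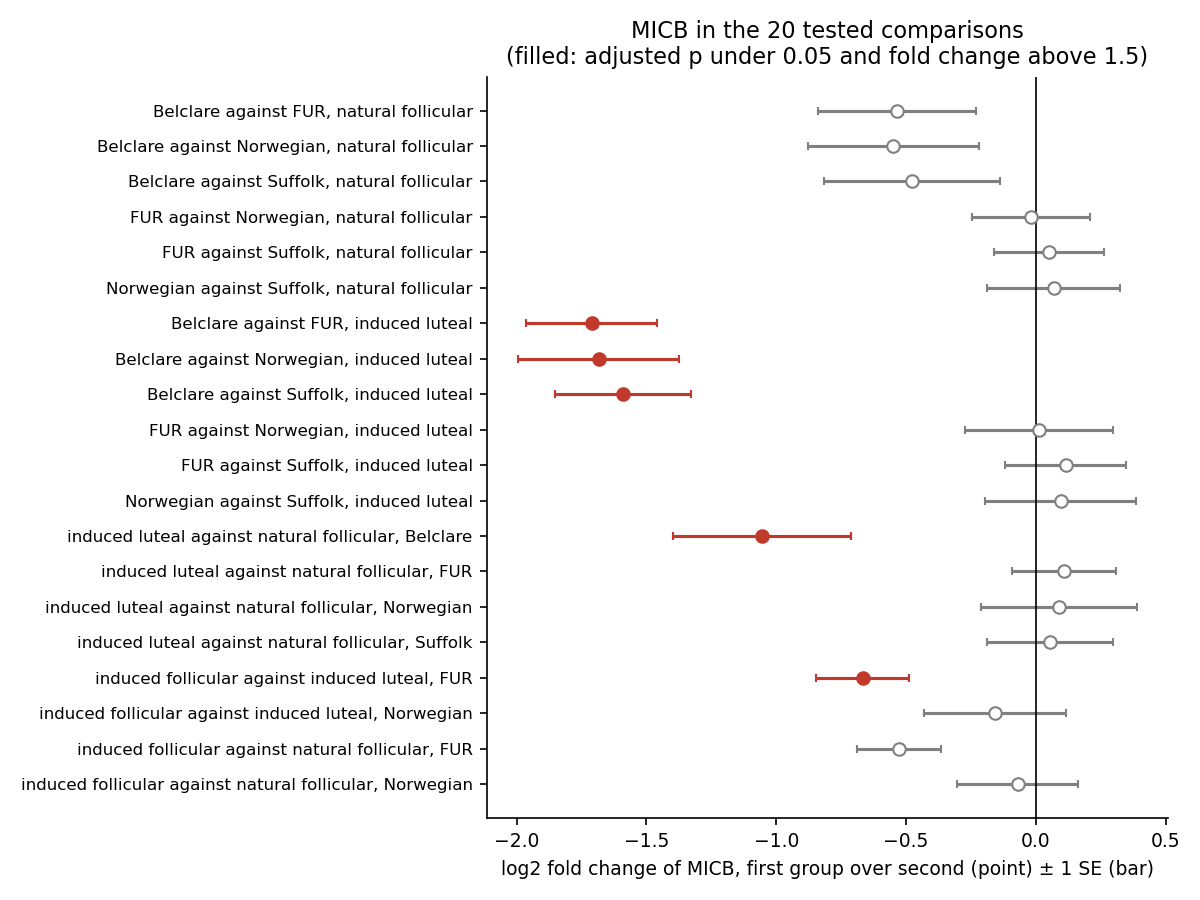
MICB in the 20 tested comparisons. The horizontal axis is the log2 fold change of the first named group over the second, with points for estimates and bars for 1 SE, and filled red points passed both limits. All 3 luteal differences of Belclare lie between -1.71 and -1.59, and the other 3 luteal pairs lie near 0.

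Within the Belclare breed MICB was 2.08-fold lower in induced luteal than in natural follicular ewes (log2 fold change -1.05, SE 0.34, edgeR adjusted p = 0.0193). All 10 luteal ewes lay below the natural follicular median, and 6 natural follicular ewes lay above all luteal ewes. In this comparison 20.6% of genes were called, and the exact permutation test did not call MICB (difference -0.90, adjusted p = 0.0804). In the other breeds the same difference was 0.11 in FUR (SE 0.20, edgeR adjusted p = 0.693), 0.09 in Norwegian (SE 0.30, edgeR adjusted p = 0.871) and 0.06 in Suffolk (SE 0.24, edgeR adjusted p = 0.892), where 19.1%, 9.42% and 13% of genes were called. The Norwegian value was 0.01 without the 2 libraries with low COX-1.

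Whether the breeds differed in this change was tested directly in 1 fit of the 8 natural follicular and induced luteal groups. The breed by state term did not pass after adjustment (edgeR F = 4.07, p = 0.010, adjusted p = 0.234), in a test that called 0.505% of genes, nor without the 2 libraries with low COX-1 (adjusted p = 0.255). The change in Belclare differed from that in FUR by -1.18 (SE 0.40, edgeR p = 0.00431, adjusted p = 0.365), from that in Norwegian by -1.15 (SE 0.41, edgeR adjusted p = 0.390, and -1.07 at adjusted p = 0.517 without the 2 libraries) and from that in Suffolk by -1.12 (SE 0.41, edgeR adjusted p = 0.204). Those tests called 0.0128%, 0.0128% and 0.671% of genes. Among the other breeds the changes differed by 0.03 (FUR and Norwegian), 0.07 (FUR and Suffolk) and 0.03 (Norwegian and Suffolk), with edgeR adjusted p from 0.956 to 0.997, in tests that called 0.0128%, 0.588% and 0.032% of genes. Without the 2 libraries the first and the last were 0.11 and -0.05. A luteal fall of MICB particular to Belclare was therefore not shown at the level of all genes.

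Induced follicular FUR ewes had the narrowest range of MICB, from 8.78 through 11.04 to 11.8 CPM. All 8 lay below the luteal FUR median of 15.5 CPM, and 7 of the 9 luteal ewes lay above all of them. MICB was 1.59-fold lower at the induced follicular than at the induced luteal phase in FUR (log2 fold change -0.67, SE 0.18, edgeR adjusted p = 0.00622), where 24.2% of genes were called. This call was lost in a fit of all 12 groups together (-0.65, edgeR adjusted p = 0.0623). In Norwegian ewes the difference was -0.16 (SE 0.27, edgeR adjusted p = 0.666), where 22.3% of genes were called.

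Against natural follicular FUR ewes, of which 8 lay above every induced one, MICB in induced FUR ewes differed by -0.53 (SE 0.16, edgeR adjusted p = 0.0296). This was 1.44-fold, under the fold limit, and so was not called, where 5.14% of genes were called. It passed both limits without FUR natural follicular replicate 5, the lowest ewe of its group (-0.61, edgeR adjusted p = 0.0120). In Norwegian ewes the difference was -0.07 (SE 0.23, edgeR adjusted p = 0.931), where 0.0128% of genes were called, and -0.15 without the 2 libraries with low COX-1. FUR and Norwegian did not pass a test of their difference in either effect, at -0.51 (SE 0.35, edgeR adjusted p = 0.9999) for phase and -0.47 (SE 0.33, edgeR adjusted p = 0.957, and -0.38 at adjusted p = 0.850 without the 2 libraries) for cycle type, tests in which 0% of genes were called.

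The gene was chosen from Belclare and Suffolk ewes at the induced follicular phase, and the breeds at this phase are described without a test. Belclare ewes ranged from 2.46 through 7.98 to 14.5 CPM and Suffolk ewes from 8.84 through 22.2 to 27.4 CPM. All 10 Belclare ewes lay below the Suffolk median, and 8 of the 11 Suffolk ewes lay above all Belclare ewes. The Suffolk ewes left a gap between 15.9 and 22.2 CPM, with 5 ewes below it and 6 above. Norwegian ewes lay from 9.40 through 14.3 to 24.5 CPM.

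Belclare minus Suffolk was -1.23 (SE 0.27) in these ewes, Belclare minus Norwegian -0.85 (SE 0.26) and Belclare minus FUR -0.37 (SE 0.25). FUR minus Suffolk was -0.86 (SE 0.20), and Norwegian minus Suffolk was -0.35 (SE 0.21). FUR minus Norwegian was -0.48 (SE 0.17), and all 8 FUR ewes lay below the Norwegian median. The induced follicular level minus the luteal level was 0.69 (SE 0.29) in Belclare and 0.29 (SE 0.23) in Suffolk. Induced minus natural follicular levels were -0.39 (SE 0.35) in Belclare and 0.36 (SE 0.23) in Suffolk.

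Ewes of the same group varied more in MICB than in most genes. The SD of log2 CPM within groups was 0.62, against a median of 0.38 over all genes, and was larger than that of 74.2% of all genes and of 81.8% of the 2153 genes of similar mean level. Within groups it ran from 0.18 in induced follicular FUR to 0.96 in natural follicular Belclare, where the highest ewe was at 9.10 times the lowest.

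The other genes of the NKG2D system were taken from lists, for those symbols that could be paired with an identifier. Names were taken from tables on the induced follicular ewes that favour genes which differ between breeds, so the lists are incomplete and not a neutral sample. A count of listed genes above the share of all genes between breeds may come from this choice. Of 7 NKG2D ligand symbols, MICB and ULBP2 were paired, ULBP2 with 2 identifiers, and none of the 3 symbols of the receptor complex (NKG2D and its adaptors) was paired. The 2 ULBP2 identifiers may be close copies that share reads and are not counted as independent.

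ULBP2 had another pattern than MICB across phases, except that both were lower in luteal than in natural follicular Belclare ewes (MICB at -1.05). ULBP2 medians were 0.183 to 2.23 CPM in luteal groups and 0.600 to 8.64 CPM in follicular groups over both identifiers. In luteal Belclare ewes ENSOARG00000002941 ranged from 0.0573 through 0.599 to 3.005 CPM, and in natural follicular Belclare ewes from 1.45 through 3.80 to 11.4 CPM. From natural follicular to luteal ewes its log2 level fell by 2.598 in Belclare (SE 0.58, edgeR adjusted p = 0.00171) and fell by 2.13 in FUR (SE 0.58, edgeR adjusted p = 0.00694). That of ENSOARG00000002140 fell by 2.53 in Belclare (SE 0.75, edgeR adjusted p = 0.0118) and fell by 2.74 in FUR (SE 0.63, edgeR adjusted p = 0.00223). Neither identifier passed in Norwegian (-1.65 and -1.66, edgeR adjusted p = 0.0580 and 0.0540, or 0.0830 and 0.0681 without the 2 libraries with low COX-1) or in Suffolk (-0.96 and -1.32, edgeR adjusted p = 0.313 and 0.105).

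In FUR the 2 ligand genes moved in opposite directions between the synchronised phases. At the induced follicular phase MICB was lower than at the luteal phase, as given above, while ULBP2 was higher, by 2.68 for ENSOARG00000002140 (SE 0.78, edgeR adjusted p = 0.00981) and by 2.42 for ENSOARG00000002941 (SE 0.67, edgeR adjusted p = 0.00735). Their medians were 0.600 and 1.29 CPM in induced follicular FUR ewes, with highest ewes at 7.41 and 10.1 CPM. Luteal FUR medians were 0.183 and 0.413 CPM, at counts of 1 to 22 and 2 to 27. Among luteal ewes, ULBP2 did not pass in any comparison of Belclare with another breed, with estimates of 1.15 and 0.74 against FUR, -0.59 and -0.55 against Norwegian, and -1.48 and -1.39 against Suffolk. Both ULBP2 identifiers passed between luteal FUR and Suffolk, lower in FUR at -2.63 (SE 0.54, edgeR adjusted p = 0.00199) and -2.13 (SE 0.49, edgeR adjusted p = 0.00418), groups in which MICB was not called.

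**Figure D3:**
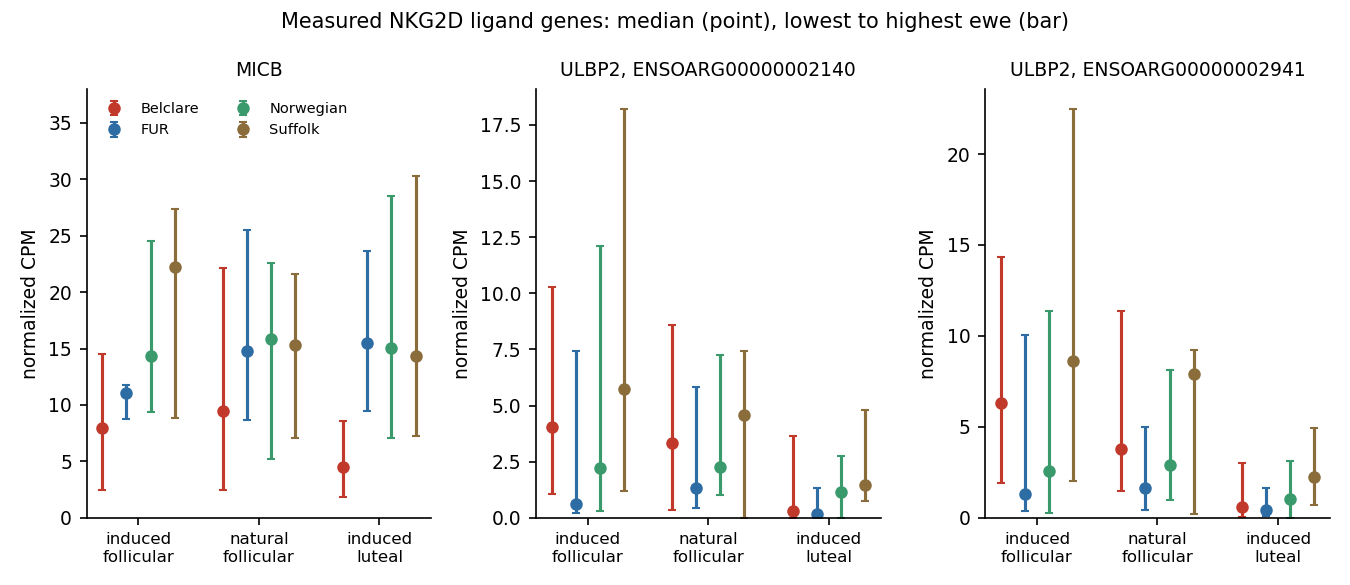
The measured NKG2D ligand genes. Points are group medians, bars run from the lowest to the highest ewe, the vertical axes are normalized CPM on a scale of their own in each panel, and colours are breeds. ULBP2 medians reach at most 2.23 CPM in luteal groups, whereas luteal MICB is low in Belclare and between 14.3 and 15.5 CPM in the other breeds.

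Genes of cytotoxic lymphocytes, the cells that carry NKG2D, were mostly not called in luteal Belclare ewes, where the shares of all genes called were 16.8% against FUR, 12% against Norwegian and 2.74% against Suffolk. Of 6 measured cytotoxic lymphocyte markers, GNLY (granulysin, a pore-forming protein of killer cells) was higher in Belclare than in FUR by 1.55 (SE 0.37, edgeR adjusted p = 0.00339) and CST7 (cystatin F, an inhibitor of granule proteases) higher than in Norwegian by 0.67 (SE 0.24, edgeR adjusted p = 0.0476), each the single call of the list, and 0 of 6 passed against Suffolk. These counts are close to the shares of all genes. The list medians were 0.38, -0.08 and -0.46, beside 0.01, -0.01 and -0.01 over all genes. NCR3, an activating receptor of natural killer cells, was at 0.12, -0.15 and -0.31 and did not pass.

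Of 11 general lymphocyte markers 4 were higher in luteal Belclare than in FUR (CD27, IKZF1, IKZF3 and ITGB2). Of these, ITGB2 is not confined to lymphocytes. Belclare had 1 marker higher than Norwegian (IKZF3) and 2 lower than Suffolk, beside 16.8% (FUR), 12% (Norwegian) and 2.74% (Suffolk) of all genes called. Those 2 were PDCD1, the inhibitory receptor PD-1, at -1.36 (SE 0.36, edgeR adjusted p = 0.0426), and JAK3, a kinase of cytokine receptors, at -1.05 (SE 0.26, edgeR adjusted p = 0.0341). The summed level of the 11 markers ranged from 81.1 to 212 CPM in luteal Belclare, 42.4 to 92.9 CPM in FUR, 53.0 to 155 CPM in Norwegian and 105 to 184 CPM in Suffolk ewes. Its medians were 95.1, 77.7, 77.9 and 124 CPM in the same order. The part of these genes in the MICB differences was not tested.

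Interferon response and antigen processing genes were higher in luteal Belclare than in FUR for 10 of 16 genes and than in Norwegian for 2 of 16, and none passed against Suffolk, where 16.8%, 12% and 2.74% of all genes were called, so the Norwegian and Suffolk counts are close to those of all genes. Among them were ISG15, an interferon-induced ubiquitin-like protein, at 1.77 against FUR (SE 0.58, edgeR adjusted p = 0.0224), and PSMB8, an immunoproteasome subunit, at 0.75 (SE 0.21, edgeR adjusted p = 0.00816). TRIM25 and RNF213 passed against both Norwegian-sampled breeds. MICB, at -1.71 in the same FUR comparison, lay opposite to these 10 genes.

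Of the metalloproteinases that can shed MIC proteins, MMP14 and MMP2 were measured. Neither passed between luteal Belclare and FUR (-0.21 and -0.17) or Norwegian (-0.17 and -0.21), and MMP2 was lower than in Suffolk at -0.80 (SE 0.21, edgeR adjusted p = 0.0442), where MMP14 was at -0.32. From natural follicular to luteal Belclare ewes both fell, MMP14 by 0.82 (SE 0.20, edgeR adjusted p = 0.00336) and MMP2 by 1.07 (SE 0.18, edgeR adjusted p = 0.000164). RNA levels do not show how much MIC protein was on or off the cell surface.

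Markers of tissue makeup differed between luteal Belclare and the Norwegian-sampled breeds, in comparisons that called 16.8% (FUR) and 12% (Norwegian) of all genes. All 5 smooth muscle markers were lower in Belclare than in FUR and 4 of 5 lower than in Norwegian, for example DES (desmin) at -2.10 (SE 0.60, edgeR adjusted p = 0.0104) and -1.77 (SE 0.54, edgeR adjusted p = 0.0249). These 5 genes are among those the study listed as lowest in Suffolk against Fur or Norwegian White Sheep at the induced follicular phase. Their count is therefore not that of a neutral list, nor are those of the epithelial markers and mucins, whose symbols came from the same tables. The summed muscle level was 80.5 to 2263 CPM in Belclare, 584 to 9479 CPM in FUR and 931 to 3911 CPM in Norwegian luteal ewes, with 2 of the 5 genes at 0 in some Belclare ewe. Of 13 epithelial markers 8 and 4 were higher in Belclare, among them CDH1 (E-cadherin) by 1.08 and 0.84, and of the 3 mucins 2 and 1 were higher. The summed epithelial level was 1995 to 3752 CPM in Belclare, 684 to 2549 CPM in FUR and 1151 to 2316 CPM in Norwegian ewes. Against Suffolk 0 of 5 muscle, 0 of 13 epithelial and 0 of 3 mucin genes passed, close to the 2.74% of all genes. The Suffolk sums were 320 to 990 CPM for muscle and 1770 to 2881 CPM for epithelium. Median sums were 508 CPM in Belclare and 575 CPM in Suffolk for muscle, and 2812 and 2399 CPM for epithelium. The part of tissue makeup in the MICB difference was not tested.

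**Figure D4:**
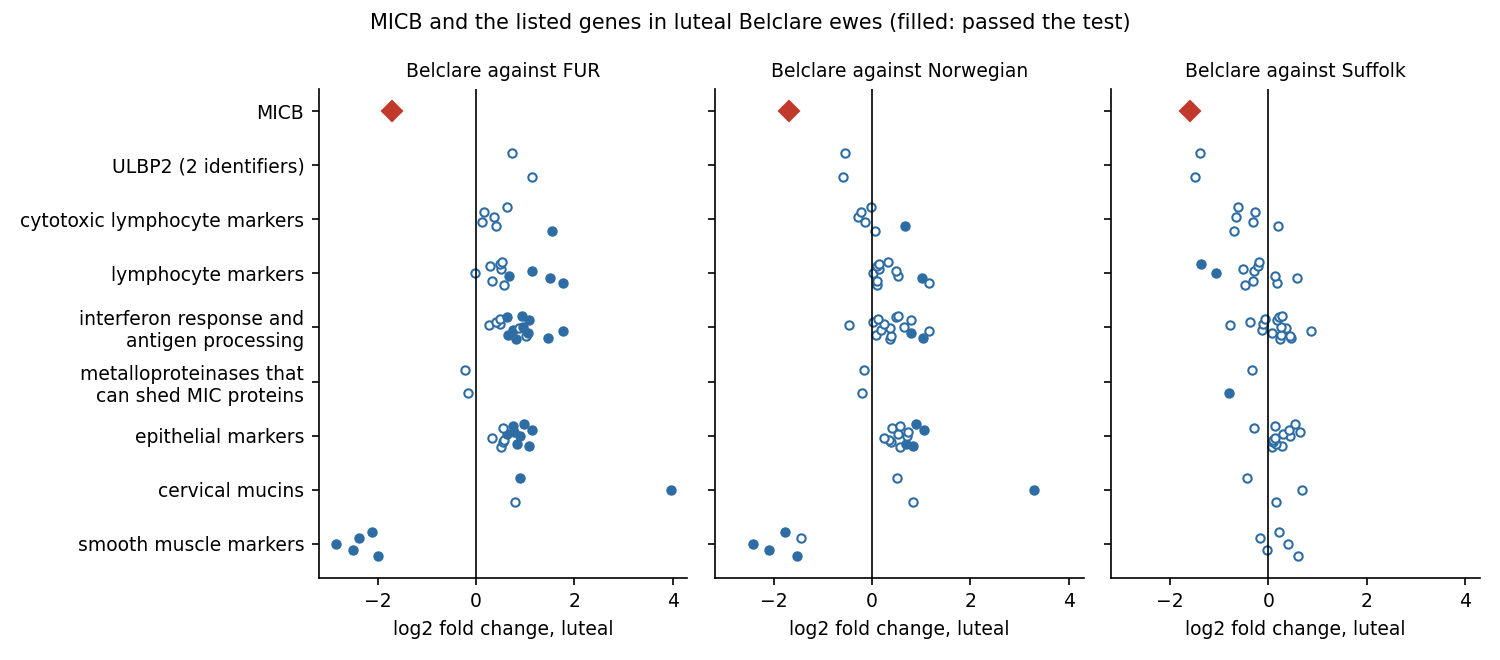
MICB and the listed genes in luteal Belclare ewes against each other breed. The horizontal axis is the log2 fold change, each circle is 1 gene and is filled where it passed both limits, and the red diamond is MICB. MICB lies between -1.71 and -1.59 in all 3 panels, and the 5 muscle markers lie below 0 in the FUR and Norwegian panels.

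MICB passed in 2 further comparisons, and the lists were called there as follows. In luteal against natural follicular Belclare ewes, where MICB fell and 20.6% of all genes were called, 5 of 11 lymphocyte markers rose and 1 fell, 2 of 6 cytotoxic markers rose and 1 fell, 3 of 16 interferon genes rose (OAS1, OAS2 and RNF213), 2 of 3 mucins and 1 of 5 muscle markers fell, and of 13 epithelial markers 2 rose and 1 fell. IL12RB2, a subunit of the interleukin 12 receptor, fell by 2.46 (SE 0.46, edgeR adjusted p = 0.000399). In FUR at the induced follicular against the luteal phase, where MICB was lower and 24.2% of all genes were called, 3 of 6 cytotoxic markers (NCR3, CST7 and TXK) were lower and IL12RB2 was higher, 1 of 11 lymphocyte markers was lower and 1 higher, 2 of 16 interferon genes (OAS1 and OAS2) were lower, 3 of 13 epithelial markers were lower and 1 higher, and 2 of 3 mucins and 2 of 5 muscle markers were higher. The counts of interferon, epithelial and muscle genes were near or below the share of all genes in the Belclare comparison, as were those of lymphocyte and interferon genes in the FUR comparison. The part of these tissue and immune genes in the MICB differences was not tested.

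The lists also held called genes where MICB was not called. As their symbols favour genes that differ between breeds, counts above the share of all genes, here and below, may come from that choice. At the natural follicular phase Belclare had 5 of 5 muscle markers lower, 11 of 13 epithelial markers higher and 3 of 3 mucins higher than FUR (16.1% of all genes called), and 5 of 5, 9 of 13 and 3 of 3 in the same directions against Norwegian (12.9%). Of the immune lists there, 2 of 11 lymphocyte markers were higher against each, 1 of 6 cytotoxic markers was higher against FUR, and 1 of 16 interferon genes was lower against FUR and 1 higher against Norwegian. No listed gene passed between Belclare and Suffolk at the natural follicular phase, between FUR and Norwegian at either tested state, or between induced and natural follicular Norwegian ewes, where at most 0.0575% of all genes were called.

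Luteal FUR and Suffolk ewes, between which MICB was not called, differed in many listed genes. FUR had 8 of 11 lymphocyte markers, 2 of 6 cytotoxic markers, 6 of 16 interferon genes, 5 of 13 epithelial markers and 2 of 3 mucins lower and 5 of 5 muscle markers higher, where 14.2% of all genes were called. At the natural follicular phase (9.52%) FUR had 6 of 16 interferon genes higher than Suffolk, among them ISG15 at 2.05 and OAS1 at 2.33, 6 of 13 epithelial markers, 2 of 3 mucins and 1 of 6 cytotoxic markers lower, and 1 of 5 muscle markers higher. Norwegian ewes had 4 of 5 muscle markers higher and 2 of 11 lymphocyte markers, 1 of 16 interferon genes, 1 of 13 epithelial markers and 2 of 3 mucins lower than Suffolk at the luteal phase (4.31%), and 3 of 13 epithelial markers lower at the natural follicular phase (0.927%).

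From the natural follicular to the luteal state 10 of 16 interferon genes and 3 of 11 lymphocyte markers rose in Suffolk (13% of all genes called), with 1 of 6 cytotoxic markers up and 1 down and 1 of 3 mucins, 1 of 2 metalloproteinases and 1 of 5 muscle markers down. In FUR (19.1%) 4 of 16 interferon genes, 1 of 11 lymphocyte markers, 1 of 3 mucins, 1 of 2 metalloproteinases and 2 of 5 muscle markers fell. In Norwegian ewes (9.42%) 1 of 6 cytotoxic markers, 1 of 11 lymphocyte markers, 2 of 2 metalloproteinases and 2 of 5 muscle markers fell and 1 of 13 epithelial markers rose. Norwegian induced follicular ewes had 10 of 16 interferon genes, 3 of 13 epithelial markers, 2 of 11 lymphocyte markers and 2 of 6 cytotoxic markers lower, and 4 of 5 muscle markers, 2 of 3 mucins and 1 of 6 cytotoxic markers higher, than luteal ones (22.3%). Induced FUR ewes had 7 of 16 interferon genes and 1 of 13 epithelial markers lower and 1 of 3 mucins higher than natural ones at the follicular phase (5.14%).

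Few genes varied from ewe to ewe as MICB did. After the group mean was taken from each ewe's log2 CPM, Pearson's r with MICB over all ewes of the 12 groups had a median of 0.01 over 15648 genes, and 9 of the 10 highest had no symbol. The highest was that of ENSOARG00000009552, r = 0.52 (Spearman's rho 0.56), followed by ENSOARG00000001274 at 0.43. Ewes of a group share breed, state and tissue site, and these values are descriptive.

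ENSOARG00000009552 was at r = 0.54 without the 2 ewes farthest from its own median, and at 0.54 without the 2 Norwegian libraries with low COX-1. By breed its r was 0.70 in Belclare, 0.32 in FUR, 0.28 in Norwegian and 0.61 in Suffolk ewes. It was not low where MICB was lowest, since its luteal Belclare ewes ranged from 40.1 through 149.7 to 189 CPM and Belclare differed from FUR, Norwegian and Suffolk by 0.25, 0.22 and -0.27 (SE 0.31, 0.44 and 0.27).

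**Figure D5:**
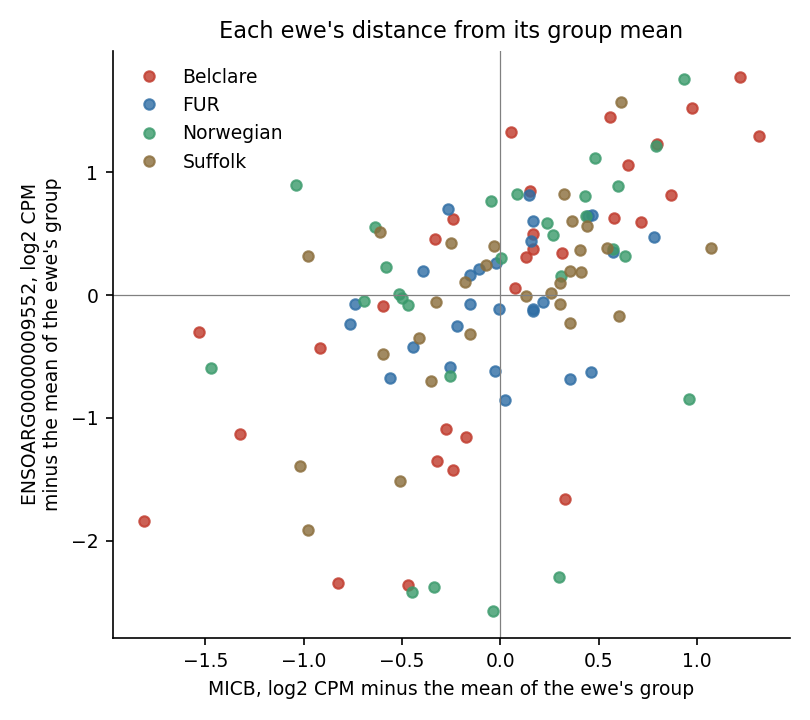
MICB and the gene most like it within groups, ENSOARG00000009552. Each point is 1 ewe of the 12 groups, and both axes are log2 CPM minus the mean of the ewe's group. Points rise together with r = 0.52 and much scatter.

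Of the genes with a symbol, r with MICB was highest for PLA2G4F (a cytosolic phospholipase A2) at 0.37, then CEACAM21 at 0.29, ARHGEF3 at 0.29, NOTCH4 at 0.28 and ADH6 at 0.28. Without the 2 ewes farthest from each gene's median these were 0.34, 0.22, 0.16, 0.32 and 0.28, so that of ARHGEF3 rests in part on those ewes, and its Spearman's rho was 0.11. In FUR ewes r was 0.16 for PLA2G4F, -0.04 for CEACAM21, -0.25 for ARHGEF3, -0.18 for NOTCH4 and -0.17 for ADH6. PLA2G4F and NOTCH4 were at 0.17 and 0.05 when group means were left in. The lowest values of r were LY6E (an interferon-induced surface protein) at -0.32, PLPP2 at -0.31 and HPS6 at -0.29. Leaving out the 2 Norwegian libraries moved r by at most 0.018 over the 80 genes described here. The listed genes lay closer to zero, with both ULBP2 identifiers at 0.18, cytotoxic markers from -0.14 to 0.11, lymphocyte markers from -0.10 to 0.23, interferon and antigen processing genes from -0.09 to 0.14 and epithelial markers from -0.13 to 0.10.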

How the data were processed

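MICB and the gene lists were chosen with earlier results of these data known. Paired-end reads of stranded mRNA libraries were trimmed by the authors, aligned with STAR 2.6.1b to Oar_v3.1 and counted on Ensembl genes with featureCounts (Subread 1.6.3). Read pairs with several places or with too many mismatches were dropped, and whether counting used the strand is not given in the sources used here. The deposited values are raw counts per gene and ewe.

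Groups followed the labels, and 1 of 115 ewes with contradicting labels was left out. Genes with at least 1 CPM in at least 10 ewes were kept and fitted with edgeR 4.0.16 in R 4.3.3 (TMM, quasi-likelihood F test). SE was the absolute log2 fold change over the root of F. The exact permutation test (SciPy 1.17.1) and DESeq2 1.42.0 were alternatives. Scripts were tested on simulated data. Genes were named if they belonged to the lists or had the highest or lowest r with MICB. Symbols, paired with 1352 identifiers, came from the study's supplementary tables. Libraries were distinct beyond counting noise (490 pairs of the same group, lowest chi-square per degree of freedom 16.1). P-values rest on the spread between ewes. Coordinates and sequence are not reported here.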

Additional observations from a re-analysis of the deposited data

Results flagged for a closer look

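Suffolk induced luteal replicate 5 had 30.3 CPM of MICB, and the next ewe of its group had 18.5 CPM. By Dixon's test of the CPM it stood apart from the rest of its group. On the log2 scale used for the other tests these 2 ewes were at 4.93 and 4.22, and Dixon's test was not run there. Replicate 5 was the only ewe to stand apart in the 11 groups of 4 to 10 ewes. Chance alone would mark about 1 in 20 such groups if the values were normally distributed. The difference of luteal Belclare from Suffolk was called without each ewe in turn, this one included, at -1.71 to -1.44.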

How the results depend on the processing

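The lower MICB of luteal Belclare ewes was called under every alternative test run. These were another normalization, no filter, DESeq2, a fit of all 12 groups, a replicate block and an exact permutation test. Over these tests the highest adjusted p was 0.000428 against FUR, 0.0179 against Norwegian and 0.0451 against Suffolk. The calls were kept with each ewe left out of a fit of the 8 natural follicular and luteal groups. The values there were -1.81 to -1.59 against FUR, -1.80 to -1.53 against Norwegian and -1.71 to -1.44 against Suffolk. Library totals and another prior count were applied to group levels alone, without a test. In luteal against natural follicular Belclare ewes the call was lost only with the exact permutation test (-0.90, adjusted p = 0.0804), and in FUR at the induced follicular against the luteal phase only in the fit of all 12 groups (-0.65, adjusted p = 0.0623); the cause was not tested. With ewes left out these were -1.19 to -0.89 and -0.75 to -0.59. The breed by state term stayed uncalled, with adjusted p from 0.142 to 0.316.

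Uncalled values near zero changed sign with the replicate block (0.032 for FUR against Norwegian, natural follicular, -0.042 for Norwegian against Suffolk, luteal, and -0.030 for luteal against natural follicular Norwegian ewes) and with the exact permutation test (0.029 for the first of these). With each ewe left out, FUR against Norwegian ran from -0.11 to 0.16 (luteal) and -0.13 to 0.043 (natural follicular), FUR against Suffolk from -0.073 to 0.13 (natural follicular), Norwegian against Suffolk from -0.067 to 0.25 (luteal) and -0.044 to 0.16 (natural follicular), and luteal against natural follicular from -0.079 to 0.19 in Norwegian and -0.11 to 0.14 in Suffolk. Natural follicular Belclare against Norwegian ran from -0.72 to -0.42 and was called only without Belclare replicate 5 (adjusted p = 0.0445). Induced against natural follicular FUR ran from -0.61 to -0.42 and was called only without FUR natural follicular replicate 5.

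Replicate numbers did not pair the ewes: over 175 same-numbered pairs the correlation of deviations ran from -0.50 to 0.45, 15 correlated best with their own number, and the block changed no call. Leaving out the 2 Norwegian libraries with low COX-1, and each ewe in the 2 FUR comparisons, was chosen after seeing the data. Without centring on groups, r with MICB moved to 0.17 for PLA2G4F, 0.05 for NOTCH4 and 0.04 for ENSOARG00000013606.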

Other observations

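The ewe whose labels contradict each other on cycle type and phase had 335 counts of MICB among 15387419, 21.8 CPM of total counts.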
